A study of Poecilia reticulata with 6 samples.

Results

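Guppy intestine at 18‰, a brackish water, was compared with guppy intestine at 0‰, freshwater. The 4 libraries were the pairs that the sample titles place at these salinities, of 6 libraries in all, and no measured value was used to choose them. The guppy, Poecilia reticulata, is a small livebearing fish that tolerates a wide range of salinity. The fish were adult wild-type animals kept at 28°C in a circulating system with 14 h of light and 10 h of dark. For the salt series, 3‰ was added to the tanks every 2 days until 35‰ was reached over 24 days, and the 18‰ fish were taken from this series. The sample labels write the salinities as percent salt, while the study's methods give per mille, which is used here. Each salinity has 2 libraries of total intestinal RNA, and how many fish or tanks went into a library is not given in the sources used here. The spread between 2 libraries is the only error available and may be technical.

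A teleost in freshwater gains water and loses ions, and its intestine mainly digests and absorbs food. In salt water it loses water across the gills and skin, drinks the medium, and takes up ions and water across the gut. The apical Na-K-2Cl cotransporter slc12a1, bicarbonate secretion through slc26a6 with slc4a4a, and water channels of the aquaporin family are textbook parts of that uptake. The absorptive enterocyte carries a brush border, a dense array of actin-filled microvilli whose membrane holds hydrolases and nutrient transporters.

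The values were TPM, a transcript's abundance scaled for its length and for the library's total, which keep no record of read number, so the depth behind a value is unknown and no counting interval is given. The table holds 10389 genes, of which 7392 to 7590 reached a TPM of 1 in a library. Its values summed to 419412 and 427838 TPM in the 0‰ replicates and to 446532 and 459528 in the 18‰ replicates. The listed genes thus hold only part of a library's total, and that part was larger at 18‰. A gene was analysed if 2 or more of the 6 libraries gave it a TPM of 1 or above, which left 7897 genes, and values were taken on the log2(TPM + 1) scale, on which changes of low genes come out smaller than they are. A gene was counted as higher or lower where both 18‰ libraries lay on the same side of both 0‰ libraries. This is a description and not a test, since with 2 libraries on each side the smallest p an exact permutation test allows is 0.333. The test was limma's, fitted across all genes and all 6 libraries.

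Some libraries stood apart by marker genes of other tissues. The 13 tested liver markers summed to a TPM of 1909 in 0‰ replicate 2, against 127 in 0‰ replicate 1 and 158 and 111 in the 18‰ replicates. Of these markers 9 were lower at 18‰ and 0 were higher. Of the defining liver genes, ambp was at 186 in 0‰ replicate 2 and at 0 to 0.81 in the other 3 libraries. The 16 leukocyte markers summed to 1270 in 0‰ replicate 1 and to 431 to 606 in the other 3, and ptprc, the common leukocyte antigen, stood at 229 there against 53.7 to 87.7 elsewhere. The 7 markers of exocrine pancreas, which lies along the gut in many teleosts, ranged from 3009 in 18‰ replicate 2 to 11376 in 0‰ replicate 1. The 16 smooth muscle markers summed to 442 to 528 at 0‰ and to 653 to 683 at 18‰. Enterocyte markers summed to 13011 in 0‰ replicate 1 and to 25896 to 27113 in the other 3 libraries. Of the 20 enterocyte markers 14 were higher at 18‰ and 1 was lower, and cdh17, the intestinal cadherin, was at 912 and 1063 at 0‰ and at 1160 and 1201 at 18‰. Fewer cells of a type and less RNA per cell cannot be told apart in whole intestine. The part of tissue make-up in the results below was not tested.

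**Figure D1:**
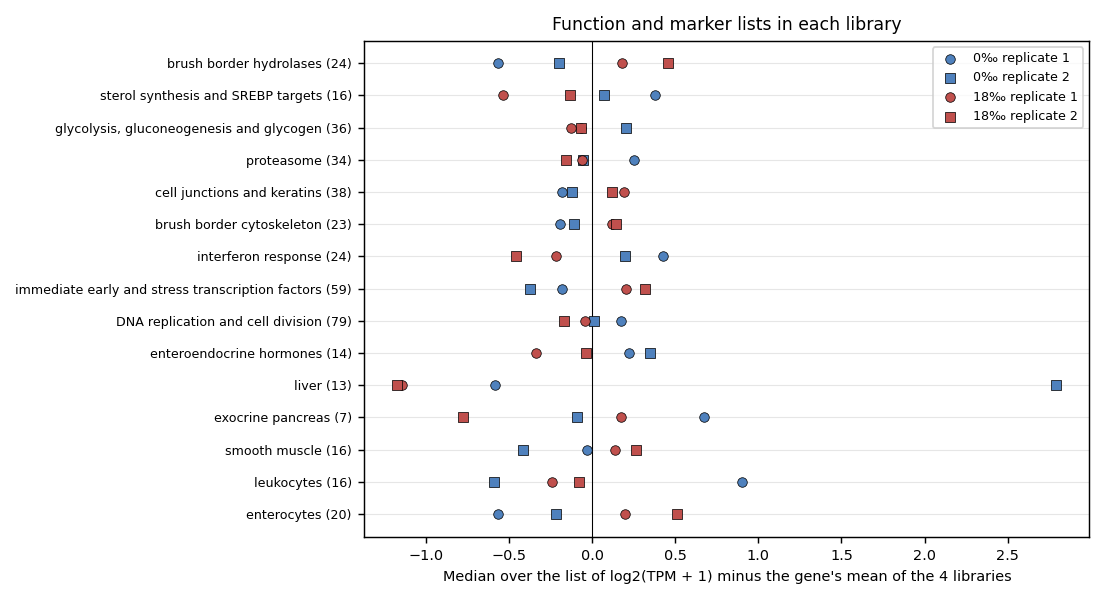
Each point is one library, blue for 0‰ and red for 18‰ with circles for replicate 1 and squares for replicate 2. The x axis gives the median over a list of log2(TPM + 1) minus that gene's mean over the 4 libraries, and the number of tested genes is in brackets. Liver markers are far higher in 0‰ replicate 2 and leukocyte markers are highest in 0‰ replicate 1, while brush border hydrolases and early transcription factors have both 18‰ libraries to the right of both 0‰ libraries.

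Of the 7897 genes, 1950 were higher in both 18‰ libraries, which is 24.7% of the genes tested, and 1011 or 12.8% were lower. Together 2961 genes were separated. If the 4 libraries were exchangeable, a share of 0.333 of genes would be separated in either direction, so separation alone does not mark a changed gene. Most of these separations were small, with a median distance of 0.15 on the log2 scale between the nearest libraries of the 2 salinities, and 1080 genes had a distance under 0.1. At the edge of the rule, acot9.2 counted as higher with its nearest libraries at 16.72 and 16.73, and vps13a did not with 29.57 and 29.56. A distance of at least 1.5-fold was reached by 172 genes that were higher, 2.18% of those tested, and by 100 that were lower, 1.27%. The excess of higher genes depended on the scaling. After median-ratio scaling, 1451 genes were higher and 1439 lower, so the share of higher genes among the separated ones moved from 65.9% to 50.2%, and the median log2 fold change over all genes from 0.06 to -0.01.

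A gene passed limma's test where its fold change exceeded 1.5 and its p, adjusted by Benjamini and Hochberg's method over all genes, was under 0.05. This held for 1 gene, 0.0127% of those tested. At an unadjusted p under 0.05, 311 genes were higher at 18‰, 3.94%, and 157 lower, 1.99%. That gene was si:dkey-27i16.2 (ENSPREG00000006921), which has no named function in the files. It was listed at 0 in both 0‰ libraries and stood at 10.55 and 7.49 TPM in the 18‰ replicates (adjusted p = 0.0321, limma). After median-ratio scaling its adjusted p was 0.0545, so this call also depended on the scaling. Without 0‰ replicate 1, 19 genes passed, of which 3 were higher and 16 lower, among them serpina1l, f2 and other liver products that were highest in 0‰ replicate 2. Without 0‰ replicate 2 the gene lost its call and slc13a1, high in 0‰ replicate 1 alone, was the 1 gene that passed. Without 18‰ replicate 1 tmsb4x and lamtor4 passed in its place, and without 18‰ replicate 2 there were 0. All functional groups below are therefore described by their libraries and by shares beside those of all genes, and no member of any function list passed the adjusted test with all libraries.

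**Figure D2:**
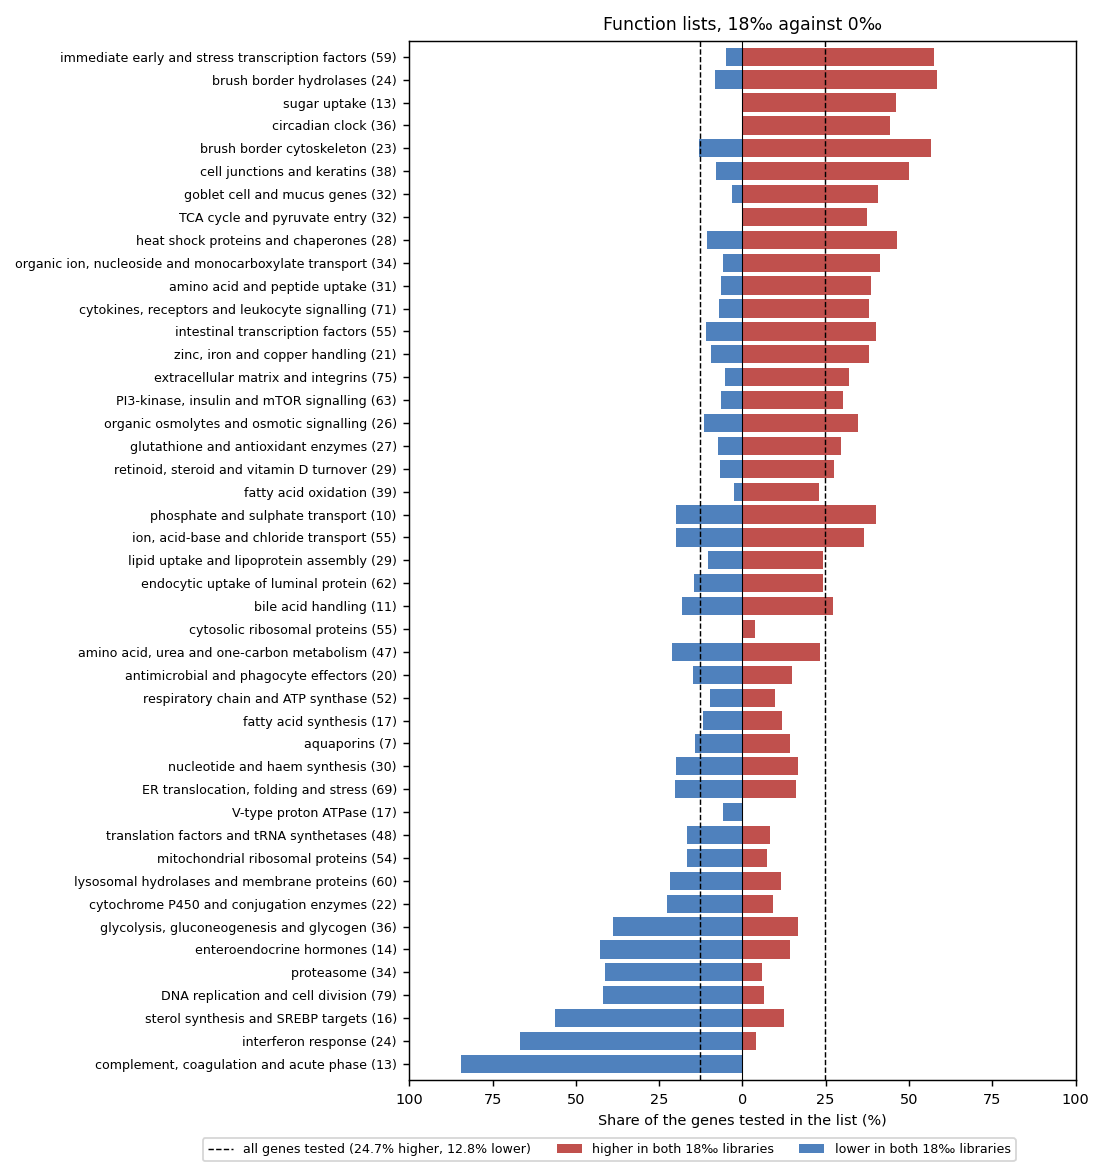
Bars to the right give the percent of the tested genes of each function list that were higher in both 18‰ libraries, and bars to the left the percent that were lower. The number of tested genes is in brackets and dashed lines mark the 24.7% and 12.8% of all genes tested. Early transcription factors and brush border hydrolases lie at the top, and complement, interferon, sterol and cell division lists at the bottom.

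Among the genes that were higher, the largest separations were in stress-responsive regulators, an epithelial oxidase and transporters. NR4A1, an orphan nuclear receptor of the immediate early class, stood at 0.88 and 1.03 TPM at 0‰ and at 10.84 and 12.96 at 18‰ (log2 fold change 2.72 ± 0.34, limma's SE, adjusted p = 0.178, limma). The catalytic subunit of the epithelial NADPH oxidase, nox1, was at 23.33 and 22.96 at 0‰ and at 140 and 102 at 18‰ (log2 fold change 2.32 ± 0.44 SE). Its organiser subunit noxo1b was at 8.94 and 3.33 against 156 and 55.6. These genes were named for their distance between the salinities, and the 18‰ replicates of noxo1b were themselves far apart.

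The sialyltransferase gene st8sia6 (ENSPREG00000008502) was at 3.65 and 0.33 at 0‰ and at 19.6 and 20.1 at 18‰. Other genes in the table carry the same symbol, so reads may have been shared between copies. The same caution holds for a pair of heat shock genes named HSPA2, at 14.9 and 25.6 against 106 and 127 (ENSPREG00000011442) and at 10.4 and 27.6 against 80.99 and 142.59 (ENSPREG00000011267). The AP-1 subunit junbb was at 42.3 and 41.5 at 0‰ and at 137 and 136 at 18‰, the closest replicates of this group. The uncharacterised si:ch211-255i3.4 was listed at 0 in both 0‰ libraries and reached 4.38 and 7.13 at 18‰.

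Among the genes that were lower, upp2, a uridine phosphorylase, was at 11.95 and 19.93 at 0‰ and at 0.42 and 0 at 18‰. The calcium-binding protein gene s100a1 was at 13.4 and 6.52 and was listed at 0 in both 18‰ libraries, as was the claudin gene cldn15b, at 5.18 and 21.1. Endothelin gene edn2, whose product is a vasoactive peptide, was at 6.49 and 5.54 against 0.51 and 0.60 (log2 fold change -2.17 ± 0.24 SE, adjusted p = 0.168, limma). Its replicates lay close together at both salinities, in a gene named for its distance between them. The transcriptional regulator NACC2 was at 15.35 and 15.92 against 3.98 and 5.50. Further large separations were in serpina1l, f2 and leg1.1, which were highest in the library rich in liver markers.

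**Figure D3:**
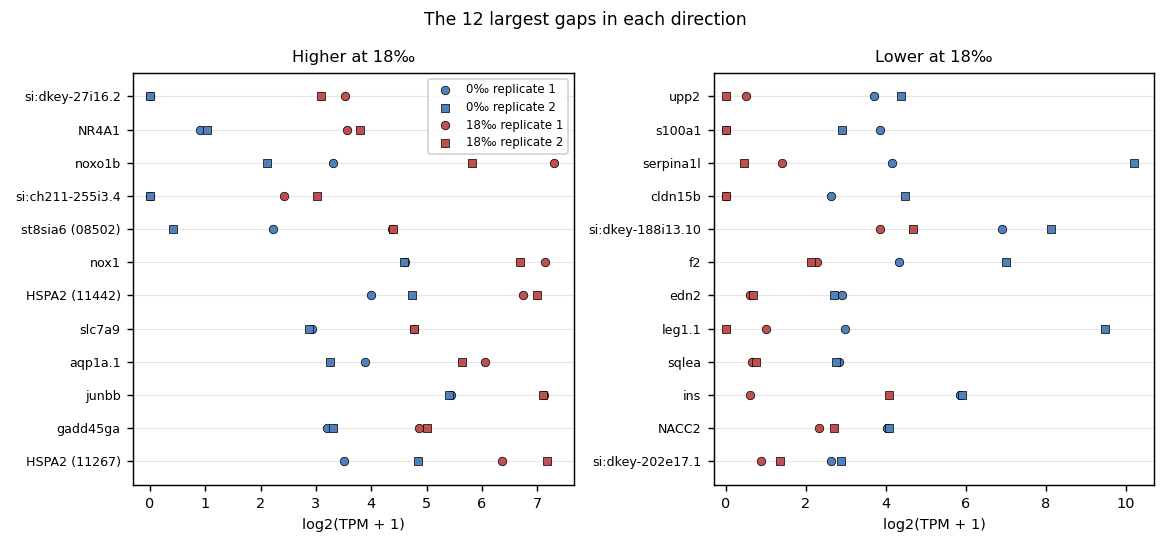
The x axis is log2(TPM + 1) and each point is a library, blue for 0‰ and red for 18‰, circles for replicate 1 and squares for replicate 2. The 12 genes with the largest distance between the nearest libraries of the 2 salinities are shown in each direction, with the last 5 digits of the identifier where a symbol occurs more than once. The red points of slc7a9 and junbb almost coincide, while serpina1l and leg1.1 are spread widely at 0‰.

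Brush border hydrolases, the enzymes that finish the digestion of peptides, sugars and lipids at the enterocyte surface, were mostly higher at 18‰. Of 24 tested, 14 or 58.3% were higher in both libraries and 2 were lower, beside 24.7% and 12.8% of all genes. The median log2 fold change was 0.67 beside 0.06 for all genes. At an unadjusted p under 0.05 the list held 9 higher and 2 lower genes, beside 3.94% and 1.99% of all genes. The lactase gene LCT was at 16.8 and 26.6 TPM at 0‰ and at 62.9 and 67.4 at 18‰ (log2 fold change 1.57 ± 0.27 SE, adjusted p = 0.376, limma). The dipeptidase gene dpep1 was at 887 and 981 against 2124 and 2241. Replicates of dpep1, a gene chosen for its distance, lay close together at either salinity, and the 18‰ mean was 2.34 times that at 0‰. The log2 fold change of dpep1 was 1.22 ± 0.58 SE, and its shared standard error takes in 35‰ libraries at 207 and 854.

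The other hydrolases that were higher were mainly peptidases. Glutamyl aminopeptidase enpep was at 260 and 310 against 583 and 795, and aminopeptidase P gene xpnpep2 at 188 and 221 against 378 and 421. Angiotensin-converting enzyme ace, which trims dipeptides from peptide ends, was at 63.6 and 54.2 against 110 and 231. The phosphatase gene alpl, related to the intestinal phosphatases, went the other way, at 5.25 and 5.57 against 2.09 and 0.91. Without each library in turn 14 to 21 of 24 genes were higher, beside 37.6% to 46.3% of all genes under the same omissions. Leaving out a library cannot bring the count below 14, so the direction of the list could not turn. The medians ran from 0.49 to 0.79. Median-ratio scaling left the count at 14, beside 18.4% of all genes. Of the 20 enterocyte markers, 9 belong to this list, so the lists are not separate.

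Nutrient transporters were split between higher and overlapping genes. Of 13 sugar uptake genes 6 were higher, 46.2%, beside 24.7% of all genes, 7 overlapped and 0 were lower, beside 12.8%. Sodium-glucose cotransporters are drawn from several slc5a1 copies, of which ENSPREG00000010069 was at 87.18 and 101.43 TPM at 0‰ and at 291 and 416 at 18‰ (log2 fold change 1.88 ± 0.36 SE). Another copy (ENSPREG00000010034) was at 98.2 and 136 against 242 and 281, and another (ENSPREG00000010019) at 167 and 246 against 338 and 510. The remaining copy (ENSPREG00000009765) overlapped, at 4.07 and 7.77 against 5.56 and 16.99. The deposited values may divide reads among these copies. The fructose transporter gene slc2a5 was at 7.33 and 29.0 against 50.5 and 80.3.

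Of 31 amino acid and peptide uptake genes 12 were higher, 38.7%, beside 24.7% of all genes. The list had 17 overlapping genes and 2 lower ones, beside 12.8% of all genes lower, and a median log2 fold change of 0.32. The light subunit of the cystine and dibasic amino acid exchanger, slc7a9, was at 6.63 and 6.30 at 0‰ and at 26.3 and 26.2 at 18‰ (log2 fold change 1.87 ± 0.33 SE, adjusted p = 0.376, limma). The peptide transporter gene slc15a1b was at 446 and 773 against 1444 and 1306. The neutral amino acid transporter gene slc6a19a.2 was at 257 and 375 against 788 and 814, whereas its relative SLC6A19 overlapped, at 15.4 and 14.4 against 7.90 and 15.3. The proline transporter gene slc6a7 was at 11.4 and 11.2 against 21.7 and 21.7. The brush border mucin gene muc13b was at 547 and 685 against 1835 and 2106.

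**Figure D4:**
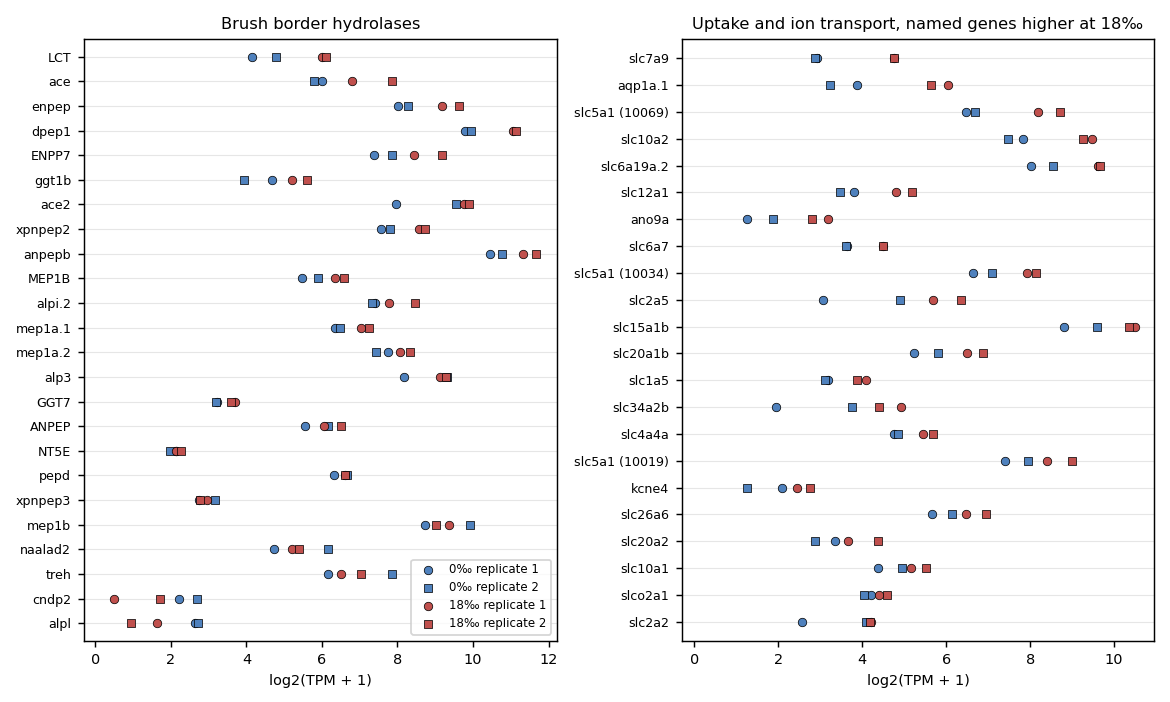
The x axis is log2(TPM + 1), with blue points for 0‰ and red for 18‰, circles for replicate 1 and squares for replicate 2. The left panel holds the 24 tested brush border hydrolases ordered by log2 fold change, and the right panel named transport genes that were higher at 18‰, ordered by the distance between the salinities. The red points lie to the right for 14 of the 24 hydrolases, and the 4 points of treh and mep1b are mixed.

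The ion transport list held genes in both directions. Of 55 genes 20 were higher, 36.4%, and 11 were lower. The cotransporter slc12a1 was at 12.96 and 10.08 TPM at 0‰ and at 27.2 and 35.5 at 18‰ (log2 fold change 1.37 ± 0.43 SE, adjusted p = 0.667, limma). Its secretory relative slc12a2 was low and overlapped, at 2.89 and 2.26 against 2.31 and 3.80. For slc12a1 the 18‰ mean was 2.72 times that at 0‰.

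Both named parts of bicarbonate secretion were higher. The anion exchanger slc26a6 was at 49.7 and 69.5 at 0‰ and at 87.78 and 123.29 at 18‰, and the bicarbonate cotransporter slc4a4a at 26.0 and 27.9 against 43.0 and 50.8. A membrane-bound carbonic anhydrase gene, ca4b, was lower, at 52.39 and 108.14 against 13.45 and 27.63. Potassium channel gene kcnk6 was also lower, at 6.81 and 6.84 against 4.24 and 4.42. Both directions thus occurred among genes of acid-base and ion transport.

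Among 7 tested aquaporins 1 was higher and 1 was lower, 14.3% each, beside 24.7% and 12.8% of all genes. The median log2 fold change of the list was -0.36, and 5 of the 7 had a negative value. That median was -0.26 without 0‰ replicate 1 and 0.41 without 0‰ replicate 2, so no direction is read from it. The water channel gene aqp1a.1 (ENSPREG00000006858) was at 13.8 and 8.48 at 0‰ and at 65.2 and 48.7 at 18‰ (log2 fold change 2.28 ± 0.37 SE, adjusted p = 0.353, limma), and its 18‰ mean was 5.12 times that at 0‰. The ileal-type bile acid transporter gene slc10a2 was at 225.64 and 175.91 against 706 and 613. It was listed at 0 in one 35‰ library, which widens its shared standard error to 2.35 beside a log2 fold change of 1.72. Of 10 phosphate and sulphate transporters 4 were higher and 2 lower, with slc20a1b at 36.3 and 55.3 against 89.4 and 117. Sulphate transporter gene slc13a1 was at 2307 in 0‰ replicate 1 alone and at 6.24 to 11.7 in the other 3 libraries.

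Of 21 genes of zinc, iron and copper handling 8 were higher, 38.1%, beside 24.7% of all genes, and 2 were lower. The median log2 fold change of the list was 0.01, beside 0.06 for all genes, so the excess of higher genes did not show in the median. After median-ratio scaling 7 were higher and 3 lower, beside 18.4% and 18.2% of all genes. Zinc importers were among the higher genes. The importer gene slc39a10 was at 16.26 and 23 against 57.61 and 48.03, and slc39a4 at 18.6 and 38.5 against 71.0 and 53.4. Of 34 organic ion, nucleoside and monocarboxylate transporters 14 were higher, 41.2%, and 2 were lower. The carrier gene slc16a9a was at 148 and 235 against 401 and 511.

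Organic osmolyte and osmotic signalling genes had 9 of 26 higher, 34.6%, beside 24.7% of all genes, and 3 lower. After median-ratio scaling 6 were higher and 5 lower, beside 18.4% and 18.2% of all genes, so the excess of higher genes depended on the scaling. Sorbitol dehydrogenase gene sord was at 27.5 and 45.6 at 0‰ and at 124.33 and 118.21 at 18‰ (log2 fold change 1.75 ± 0.40 SE). The taurine transporter gene slc6a6b was at 113 and 118 against 162 and 284, and the aldose reductase gene akr1b1.1 at 130 and 144 against 194 and 212. The serum- and glucocorticoid-regulated kinase gene SGK1, which controls ion transporters, was at 57.5 and 67.2 against 95.2 and 198. Lower in this list were cbsa, a cystathionine synthase at 24.8 and 39.7 against 10.3 and 10.4, gamt of creatine synthesis and akr1a1b. The phosphoinositide kinase gene pik3cb overlapped, at 13.5 and 16.6 against 17.2 and 15.3.

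Cell junction and keratin genes were higher in 19 of 38, 50.0%, and lower in 3, beside 24.7% and 12.8% of all genes. The median log2 fold change of the list was 0.29. At a distance of at least 1.5-fold 2 were higher and 1 lower, beside 2.18% and 1.27% of all genes. The lower one was cldn15b, with the largest change of the list, at 5.18 and 21.1 TPM at 0‰ and at 0 and 0 at 18‰. The tight junction scaffold gene tjp3 was at 54.5 and 50.1 TPM at 0‰ and at 76.8 and 97.2 at 18‰, and occludin gene oclna at 23.1 and 19.6 against 31.5 and 28.6. An adhesion molecule of the epithelium, tmigd1, was at 319 and 212 against 700 and 679, and was listed at 0 in one 35‰ library. Brush border cytoskeleton genes were higher in 13 of 23, 56.5%, and lower in 3. At a distance of at least 1.5-fold 0 were higher and 2 lower, and at an unadjusted p under 0.05 there were 1 higher and 2 lower. The shares of all genes were 2.18% and 1.27% by distance, and 3.94% and 1.99% by unadjusted p. The median log2 fold change of the list was 0.28, and among the higher genes was ezra, an ezrin that ties microvillar actin to the membrane, at 577 and 713 against 905 and 1100. The actin-bundling gene avil was lower, at 6.44 and 7.77 against 2.30 and 3.59. After median-ratio scaling 17 junction and 12 cytoskeleton genes were higher, beside 18.4% of all genes.

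Goblet cell and mucus genes were higher in 13 of 32, 40.6%, and lower in 1, beside 24.7% and 12.8% of all genes. After median-ratio scaling 9 were higher and 1 lower, beside 18.4% and 18.2% of all genes. The list also holds muc13b, the brush border mucin above, and st8sia6, whose log2 fold change of 3.07 was the largest of the list. The goblet cell transcription factor SPDEF was at 20.1 and 11.7 against 28.0 and 25.7, and the mucin-folding protein gene agr1 at 51.4 and 31.5 against 87.0 and 60.2. Of 75 matrix and integrin genes 24 were higher, 32.0%, and 4 lower, 5.3%, beside the same 24.7% and 12.8%. After scaling 17 were higher and 6 lower, beside 18.4% and 18.2%. The epithelial integrin gene itgb6 was at 17.7 and 21.5 against 38.4 and 37.7, and the basement membrane collagen col4a1 at 16.5 and 16.2 against 31.81 and 21.15. Smooth muscle markers, of which 8 of 16 were higher and 1 lower, had the same direction as the matrix list.

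Immediate early and stress transcription factors, which are induced within minutes by growth factors, stress or handling, had 34 of 59 higher, 57.6%, and 3 lower. Of all genes 24.7% were higher and 12.8% lower. The list's median log2 fold change was 0.56. At an unadjusted p under 0.05 it held 18 higher and 1 lower genes, beside 3.94% and 1.99% of all genes. The growth arrest gene gadd45ga was at 8.23 and 8.90 TPM at 0‰ and at 28.14 and 31.02 at 18‰ (log2 fold change 1.68 ± 0.23 SE, adjusted p = 0.178, limma). The AP-1 subunit fosl1a was at 11.5 and 7.62 against 28.5 and 55.0, and the stress factor atf3 at 8.01 and 6.5 against 17.5 and 20.3. Replicates lay closer than the salinities in gadd45ga, junbb and atf3, which was largely set by choosing genes for their distance. The Kruppel-like gene klf15 was lower, at 4.75 and 9.04 against 4.62 and 3.98. Without each library in turn 38 to 45 of 59 were higher, beside 37.6% to 46.3% of all genes under the same omissions. Leaving out a library cannot bring the count below 34, so the direction of the list could not turn. The medians ran from 0.38 to 0.74. After median-ratio scaling 31 were higher, beside 18.4% of all genes.

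Heat shock proteins and chaperones had 13 of 28 higher, 46.4%, and 3 lower, beside 24.7% and 12.8% of all genes. After median-ratio scaling 9 were higher and 4 lower, beside 18.4% and 18.2% of all genes, and the list's median log2 fold change was 0.07. Beside the HSPA2 pair, the cytosolic chaperone gene HSP90AA1 was at 42.5 and 34.7 against 73.2 and 115. Circadian clock genes had 16 of 36 higher, 44.4%, and 0 lower, beside the same 24.7% and 12.8%, and 13 higher and 0 lower after scaling. The clock repressor cry1a was at 8.11 and 10.3 against 17.6 and 19.1, and nfil3-6, a repressor that follows the clock, at 32.8 and 27.1 against 61.2 and 92.1. The time of day at which each fish was taken is not given in the sources used here.

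Intestinal transcription factors had 22 of 55 higher, beside 24.7% of all genes, and 6 lower, 10.9%, beside 12.8%. The orphan receptor gene nr5a2, a regulator of bile acid and crypt genes in mammals, was at 1.0 and 1.8 against 7.45 and 4.79. The epithelial ETS factors elf3 and ehf were at 10.28 and 18.98 against 41.7 and 31.1, and at 2.74 and 5.01 against 14.3 and 9.28. The hox genes hoxc8a and hoxc6a were higher too, at 9.54 and 5.61 against 17.4 and 18.1, and at 4.41 and 3.33 against 6.85 and 9.07. Genes of the hox clusters vary along the gut, and whether the same stretch of intestine was taken at each salinity is not given in the sources used here.

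Cytokines, receptors and leukocyte signalling had 27 of 71 higher, 38.0%, and 5 lower, beside 24.7% and 12.8% of all genes. The decoy receptor gene il22ra2 was at 1.42 and 1.96 TPM at 0‰ and at 12.5 and 6.44 at 18‰, and the receptor adaptor gene traf4a at 2.00 and 2.68 against 8.25 and 7.44. The ligand gene tnfsf13b, a B cell survival factor, was lower, at 38.1 and 12.1 against 10.6 and 11.4, and was highest in the library with the most leukocyte markers. Of the 16 leukocyte markers 0 were higher and 1 was lower. The antimicrobial and phagocyte list had 3 of 20 higher, among them nox1 and noxo1b, and 3 lower. The acute phase gene saa was at 267 and 41.6 against 34.1 and 25.2.

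Interferon response genes, which mark antiviral signalling, were lower in 16 of 24, 66.7%, and higher in 1, beside 12.8% and 24.7% of all genes. The list's median log2 fold change was -0.68. At an unadjusted p under 0.05 it held 11 lower and 1 higher genes, beside 1.99% and 3.94% of all genes. Before matches of unrelated families were removed, which was done after values were seen, 16 of 27 were lower and 3 higher. The median was then -0.55. The transcription factor stat1a, which carries the interferon signal to the nucleus, was at 82.6 and 55.7 TPM at 0‰ and at 29.2 and 22.9 at 18‰ (log2 fold change -1.36 ± 0.33 SE, adjusted p = 0.532, limma). The RNA sensor gene dhx58 was at 26.2 and 32.0 against 11.1 and 10.0 (log2 fold change -1.38 ± 0.27 SE). The antiviral gene rsad2 was at 7.08 and 15.4 against 3.04 and 2.31, rnf213b at 9.04 and 14.7 against 3.27 and 3.31, and usp18, a feedback inhibitor, at 8.33 and 8.49 against 4.03 and 3.19.

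These 5 genes were named for having the largest distances in the list, and no adjusted p was below 0.05. The list shares 1 gene with the leukocyte markers, and leukocyte markers were highest in 0‰ replicate 1. Without that library 17 of 24 genes were lower, beside 30.0% of all genes, but the median was -0.36. Without 0‰ replicate 2, 20 were lower, beside 30.9%, and the median was -0.83. Leaving out a library cannot bring the count below 16, so the direction of the list could not turn. After median-ratio scaling 16 were lower, beside 18.2% of all genes.

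Sterol synthesis genes, the targets of the SREBP transcription factors that answer to cell cholesterol, were lower in 9 of 16, 56.2%, and higher in 2. Of all genes 12.8% were lower and 24.7% higher. The list's median log2 fold change was -0.55. At an unadjusted p under 0.05 it held only 2 lower and 0 higher genes, beside 1.99% and 3.94% of all genes. Squalene epoxidase gene sqlea was at 6.03 and 5.72 TPM at 0‰ and at 0.56 and 0.69 at 18‰ (log2 fold change -2.08 ± 0.32 SE, adjusted p = 0.322, limma). The lanosterol demethylase gene cyp51 was at 36.99 and 36.56 against 6.33 and 18.5, and squalene synthase gene fdft1 at 13.5 and 5.73 against 3.17 and 3.13. The steps on either side, hmgcs1 at the entry and ebp near the end, were at 32.4 and 45.6 against 16.6 and 19.3, and at 47.8 and 41.6 against 17.7 and 24.3.

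The enzyme hmgcrb, the committed step of the same pathway, was higher, at 7.25 and 4.26 against 8.12 and 9.21. Each omission gave 9 to 13 of 16 lower, beside 22.2% to 30.9% of all genes, and no omission can bring that count below 9. The medians ran from -0.86 without 18‰ replicate 2 to -0.44 without 18‰ replicate 1. Some genes of sterol and lipid uptake and storage were higher. The sterol importer gene NPC1L1 was at 24.1 and 59.6 against 108 and 83.6, the lipoprotein receptor gene scarb1 at 8.68 and 28.7 against 32.8 and 78.1, and plin2, which coats lipid droplets, at 322 and 413 against 1022 and 1427. In the list of lipid uptake and lipoprotein assembly that holds them, 7 of 29 were higher, 24.1%, close to the share of all genes, and 3 were lower.

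**Figure D5:**
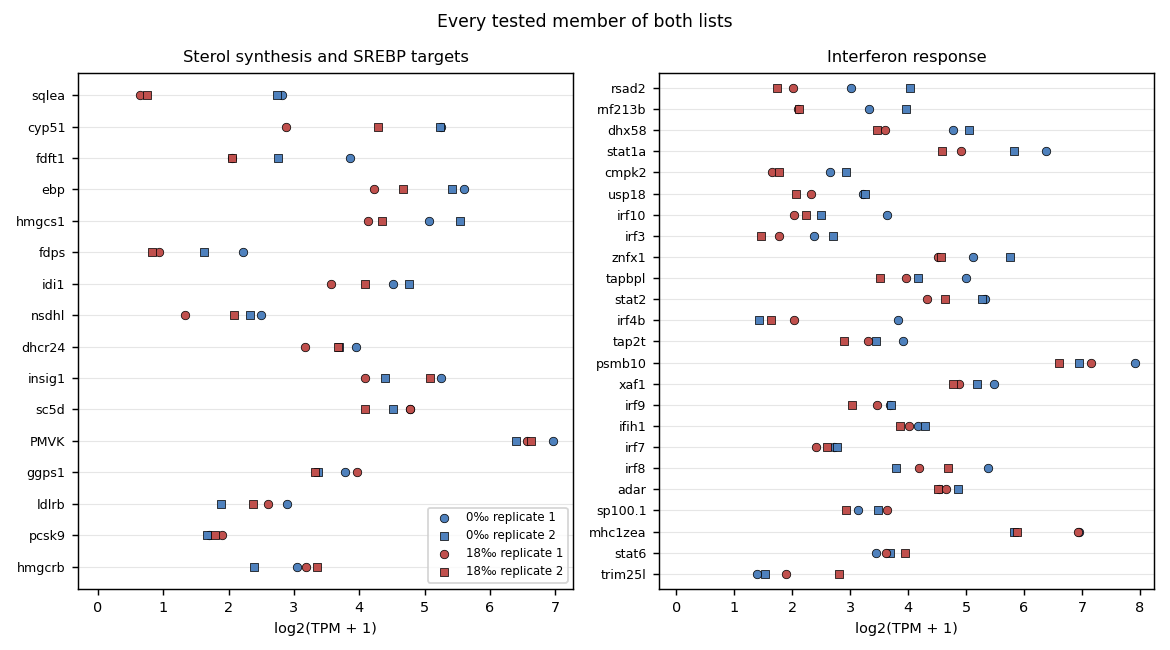
The x axis is log2(TPM + 1), with blue points for 0‰ and red for 18‰, circles for replicate 1 and squares for replicate 2. The left panel holds the 16 tested sterol genes and the right panel the 24 tested interferon genes, ordered by log2 fold change. The red points lie to the left of the blue for 9 sterol genes and 16 interferon genes, while hmgcrb and trim25l lie the other way.

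DNA replication and cell division genes were lower in 33 of 79, 41.8%, and higher in 5, beside 12.8% and 24.7% of all genes. The differences were small, with a median log2 fold change of -0.20. The mitotic kinase gene cdk1 was at 25.81 and 17.01 TPM at 0‰ and at 12.9 and 12.2 at 18‰, and replication factor gene gins2 at 12.4 and 9.26 against 5.54 and 4.78. The cytokinesis genes prc1a and cep55l were at 7.59 and 5.22 against 3.96 and 2.16, and at 7.98 and 18.2 against 6.43 and 5.18. Of the list, 1 gene was lower by a distance of at least 1.5-fold and 3 at an unadjusted p under 0.05. The shares of all genes were 1.27% and 1.99%. Without 0‰ replicate 1 the median was -0.10 and without 0‰ replicate 2 it was -0.29.

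Proteasome genes were lower in 14 of 34, 41.2%, and higher in 2, with a median of -0.19. None had a distance of 1.5-fold and 0 had an unadjusted p under 0.05. The base subunit gene psmc1b was at 39.1 and 28.6 against 24.8 and 22.5, and psmd8 at 87.6 and 81.1 against 68.2 and 61.55. The median was -0.06 without 0‰ replicate 1 and -0.38 without 0‰ replicate 2, and 19 genes were lower after median-ratio scaling, which moved the share of all genes from 12.8% to 18.2%.

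Of 36 genes of glycolysis, gluconeogenesis and glycogen, 14 were lower, 38.9%, and 6 higher, 16.7%, beside 12.8% and 24.7% of all genes. Lower were the glycolytic enzymes ldha, at 15.7 and 19.2 TPM against 10.5 and 8.70, and aldocb, at 156 and 108 against 75.2 and 59.9, and glycogen synthase gene gys1, at 14.8 and 13.9 against 8.45 and 7.15. Of the genes that were higher, pck1, the committed enzyme of gluconeogenesis, was at 255 and 327 against 783 and 2461. Another gluconeogenic enzyme, fbp1a, was lower, at 16.3 and 25.7 against 6.04 and 11.8. The median of -0.20 was -0.003 without 0‰ replicate 2, with 17 genes lower and 16 higher, beside 30.9% and 46.3% of all genes.

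Genes of the citrate cycle and pyruvate entry were higher in 12 of 32, 37.5%, and lower in 0, by little, as for cs, citrate synthase, at 224 and 332 against 359 and 364. After median-ratio scaling 4 were higher and 2 lower, beside 18.4% and 18.2% of all genes. Of 52 respiratory chain subunits 5 were higher and 5 lower without scaling, 9.6% each, beside 24.7% and 12.8% of all genes. With scaling 2 were higher and 14 lower. Of 39 fatty acid oxidation genes 9 were higher, 23.1%, and 1 was lower.

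Haem synthesis genes lay in both directions within the nucleotide and haem list, of which 5 of 30 were higher and 6 lower. The first enzyme, alas1, was at 136 and 105 TPM against 295 and 198. A later one, cpox, was lower in both copies in the table, at 82.8 and 80.8 against 34.1 and 32.3 (ENSPREG00000015546) and at 12.1 and 13.2 against 5.27 and 4.82 (ENSPREG00000015580), and reads of the copies may not be separable. The aryl hydrocarbon receptor target cyp1a was lower, at 18.6 and 38.8 against 4.2 and 7.78. Its list of cytochrome P450 and conjugation enzymes had 2 of 22 higher, 9.1%, and 5 lower, 22.7%, beside 24.7% and 12.8% of all genes. Glutathione transferase gene gstr, of the glutathione and antioxidant list, was higher, at 1714 and 2360 against 4857 and 3518. That list had 8 of 27 higher, 29.6%, and 2 lower, 7.4%. After median-ratio scaling 5 were higher and 2 lower, beside 18.4% and 18.2% of all genes.

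In the list of enteroendocrine and islet hormones 6 of 14 genes were lower, 42.9%, and 2 higher, beside 12.8% and 24.7% of all genes. The list also holds the endothelin gene edn2 described above, a vasoactive peptide gene, among its lower members. Peptide YY gene pyyb, a product of hormone cells of the gut, was at 215 and 389 TPM at 0‰ and at 140 and 55.4 at 18‰, and pyya was at 9.04 and 9.63 against 4.05 and 5.43. Insulin gene ins, a product of the pancreatic islet, was at 57.2 and 59.3 against 0.52 and 15.85. Cholecystokinin gene ccka was higher, at 4.72 and 4.03 against 8.33 and 7.24. The exocrine pancreas markers summed to 11376 and 5588 at 0‰ and to 6481 and 3009 at 18‰. The part of pancreatic tissue in the values of ins was not tested. The median of the list was -0.45, and -0.26 without 18‰ replicate 1.

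Complement, coagulation and acute phase genes, mostly products of the liver, were lower in 11 of 13, 84.6%, and higher in 0. Of all genes 12.8% were lower and 24.7% higher. The antiprotease gene serpina1l was at 16.65 TPM in 0‰ replicate 1 and at 1178 in 0‰ replicate 2, against 1.62 and 0.36 at 18‰, and prothrombin gene f2 was at 19.2 and 126 against 3.82 and 3.36. The median log2 fold change of -2.55 was -0.67 without 0‰ replicate 2 and -4.57 without 0‰ replicate 1. Without 0‰ replicate 2 the count of lower genes was again 11 of 13, beside 30.9% of all genes. Leaving out a library cannot bring that count below 11, so nothing is read from it. The list shares 9 of its 13 genes with the liver markers, and its part in this result was not tested.

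Several large groups had few separated genes, and their counts turned on which 0‰ library was left out. Cytosolic ribosomal proteins had 2 of 55 higher and 0 lower, but 50 were higher without 0‰ replicate 1 and 37 were lower without 0‰ replicate 2. Translation factors and tRNA synthetases had 4 of 48 higher and 8 lower, with 23 higher and 14 lower without 0‰ replicate 1 and 9 higher and 27 lower without 0‰ replicate 2. The proton pump of acidic organelles had 0 of 17 higher and 1 lower, with 12 higher and a median of 0.20 without 0‰ replicate 1, and 16 lower and a median of -0.44 without 0‰ replicate 2. Under these omissions 42.1% and 46.3% of all genes were higher and 30.0% and 30.9% lower. No direction is read from these lists.

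Lysosomal genes were lower in 13 of 60, 21.7%, and higher in 7, with a median of -0.12. The direction depended on 0‰ replicate 1, in which leukocyte markers were highest, and without it 29 were higher and 17 lower, with a median of 0.06. The part of leukocytes in this list was not tested. The cathepsin genes ctss1 and ctsl.1 were at 100 and 46.1 against 28.8 and 31.9, and at 1284 and 828 against 698 and 714. Mitochondrial ribosomal proteins had 4 of 54 higher, 7.4%, and 9 lower, 16.7%. Endoplasmic reticulum genes had 11 of 69 higher, 15.9%, and 14 lower, 20.3%, beside 24.7% and 12.8% of all genes. These counts depended on the scaling. After median-ratio scaling 4 mitochondrial ribosomal genes were higher and 22 lower, and 5 endoplasmic reticulum genes higher and 23 lower. The shares of all genes were then 18.4% and 18.2%.

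The genes with the largest distance between 0‰ and 18‰ were also read at 35‰, in a comparison that shares the 0‰ libraries. They were chosen for their 18‰ values, so their place beside 18‰ is a description only. Of the 6 largest in the higher direction, si:dkey-27i16.2 was at 8.96 and 7.94 TPM at 35‰, NR4A1 at 1.13 and 3.05, noxo1b at 3.42 and 43.1, si:ch211-255i3.4 at 20.3 and 4.81, st8sia6 at 8.98 and 15.8, and nox1 at 25.3 and 68.9. The 35‰ libraries thus lay near the 0‰ values in some of these genes and near the 18‰ values in others. Of the 6 largest in the lower direction, upp2 was at 1.48 and 23.5, s100a1 at 2.71 and 0.82, serpina1l at 0.78 and 0.14, cldn15b at 5.35 and 2.88, si:dkey-188i13.10 at 2.99 and 15.5, and f2 at 1.60 and 2.50. The 35‰ replicates of upp2 and noxo1b were themselves far apart. The cotransporter slc12a1, one of the fixed transport genes, was at 191 and 74.8 at 35‰, above its 18‰ values.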

How the data were processed

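RNA of guppy intestine was sequenced by the authors with paired-end reads, aligned with STAR to the species' genome and, per the study's methods, quantified with StringTie, and the genome build is not given in the sources used here. The deposited values are TPM, scaled by the authors for transcript length and library size, and were used as deposited. The authors' differential expression with DESeq2 was not repeated, since TPM are not counts. Genes were kept where 2 or more of 6 libraries gave a TPM of 1 or above, and log2(TPM + 1) was fitted with limma 3.58.1 in R 4.3.3 with a mean-variance trend, 1 term per salinity and no block. Summaries used Python 3.11.15, pandas 2.3.3 and numpy 2.4.6. The fit was tested on simulated data. The 45 function and 10 marker lists were matched by symbol, and 73 matches of unrelated families were removed after values were seen. Named genes are, per function list, up to 5 in each direction with the largest distance between salinities and a mean TPM of at least 5 at the higher one, the 12 largest in each direction over all genes, the called gene and a fixed set of transport genes, of which those not tested, and 1 other gene, are not reported here. The genes acot9.2, vps13a, trim25l, treh, mep1b, tmsb4x and lamtor4, the marker genes and copies of the fixed set are named outside that rule, chosen after their values were seen. Members and lists were chosen with earlier results of these data known. Alternatives covered the pseudocount, filter, trend, scaling, block, libraries in the fit and omission of each library.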

Additional observations from a re-analysis of the deposited data

How the results depend on the processing

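With 2 libraries per salinity and unknown depth, a value rests on the agreement of single libraries. limma's 1 gene became 0 with a mean TPM of at least 5, after median-ratio scaling, with no filter on low values and in a fit of the 4 libraries alone, where 311, 486, 567 and 580 genes had an unadjusted p under 0.05. A replicate block also gave 0 genes (507 at an unadjusted p under 0.05), and samples that share a number did not deviate together, with correlations of 0.06 between 0‰ and 18‰, -0.04 between 0‰ and 35‰ and 0.05 between 18‰ and 35‰, so the numbers were not taken as pairs. Leaving out each library of the 2 salinities gave 0 to 19 genes, the most without 0‰ replicate 1 and the only omission that kept si:dkey-27i16.2, in a fit where the lone library of a salinity is assumed to vary like the others.

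A mean TPM of at least 5 left 5080 genes, of which 1268 were higher and 617 lower, and with it 55 genes were lower by at least 1.5-fold, against 100 of all 7897. A pseudocount of 0.1 over the 7897 genes gave 159. Leaving out each library, an alternative added after the data were seen, gave 2966 to 3660 higher and 1751 to 2444 lower genes, since fewer libraries have to be separated. Medians of log2 fold change over the omissions ran from -0.86 to -0.44 for sterol synthesis, -0.24 to -0.0030 for glycolysis and glycogen, -0.380 to -0.0632 for the proteasome, 0.23 to 0.35 for junctions, 0.22 to 0.35 for the brush border cytoskeleton, -0.83 to -0.36 for interferon response, -4.57 to -0.67 for complement and coagulation, 0.38 to 0.74 for early transcription factors and -0.66 to -0.26 for hormones. The junction median was 0.35 with a pseudocount of 0.1, 0.22 after scaling and 0.36 with a mean TPM of at least 5, and that of the cytoskeleton was 0.19 after scaling and 0.34 with the stricter filter. With every symbol that had matched, also added later, the hormone median was -0.28.

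Of 2149 recomputed log2 fold changes of 307 named genes, 2130 kept direction and side of the threshold and 5 reversed. Most named genes were chosen because their libraries do not overlap, and for these no omission of a library can reverse the direction. The agreement was therefore largely set by that choice and is not a check of the directions. The reversals were uqcrc1, at -0.00296 after scaling, and overlapping genes over the omissions, SLC6A19 from -0.84 to 0.0303, slc12a2 from -0.11 to 0.43, pik3cb from -0.0283 to 0.25 and the SLC5A1 copy from -0.0236 to 1.43. The causes were not tested.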
